A study of Mus musculus with 5 samples.

Results

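Immediate-early response genes were followed in mandibular condyle cartilage, which covers the jaw joint, in mice with and without discoidin domain receptor 1 (Ddr1). The set held 34 genes fixed by name, among them the FOS, JUN, EGR, NR4A and DUSP families, and all 34 had a row of their own among the 19938 genes tested. Each gene was taken from rows whose platform annotation gave exactly 1 gene symbol, and Socs3, which had 2 such rows, was represented by the brighter one. Total RNA from 2 Ddr1 knockout mice (knockout 2 and 5) and 3 wild-type mice (wild type 3, 4 and 6) was hybridised to whole-transcript arrays, 1 array a mouse. All 5 mice were of strain 129/Sv, the labels name no allele beyond knockout or wild type, and neither age nor the construction of the knockout allele is given in the sources used here. The array names carry 1 of 2 dates. Knockout 2 and wild type 3 share date 1, and knockout 5 and wild types 4 and 6 share date 2. Levels are log2 RMA signals as deposited by the authors, and a change is the knockout mean less the wild-type mean.

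Immediate-early genes are transcribed within minutes of a growth factor, stretch or stress signal, without new protein synthesis. MAP kinases carry such signals to factors such as SRF and CREB on their promoters, and many of the products are transcription factors or inhibitors that switch the same signal off. In skeletal tissue they respond to load and injury, and handling of tissue can raise them too.

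Ddr1, the deleted collagen receptor, was at 5.96 and 5.80 in the knockout mice and had 1 value, 6.02, on all wild-type arrays, a change of -0.14 (SE 0.058, limma's adjusted p = 0.377), so it does not check the labels here. Wild-type arrays correlated with each other at 0.984 to 0.993 across genes, while knockout 2 correlated with them at 0.814 to 0.837, knockout 5 at 0.903 to 0.927. Between both knockouts the value was 0.803. The SD over genes was 0.802 and 0.906 on the knockout arrays and 0.991 to 1.02 on the wild-type arrays, and its part in the changes below was not tested. Col2a1 and Comp, matrix genes of chondrocytes, were at 7.27 and at 6.21 to 6.27 in wild type, and detection above background was not assessed. In 30 of the 34 genes at least 2 arrays held exactly the same value, as in 87.3% of all genes. Single values also recurred across unrelated genes, up to 592 rows of the table holding 1 value on 1 array. A value held by 10 or more rows on its array is called recurring below, and 19 of the 34 genes had at least 1 (54.8% of all genes). These were Fosl1, Fosl2, Junb, Egr1, Egr2, Egr4, Nr4a3, Atf3, Maff, Klf4, Myc, Ier2, Ier3, Dusp1, Dusp2, Dusp4, Zfp36l1, Btg2 and Gadd45g. Equal values of this kind do not show equal expression, and where wild-type values are identical the standard error does not measure the spread between mice.

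In knockout cartilage 1 of the 34 immediate-early genes fell, Egr1, none rose, and 33 did not pass the test, which was limma's moderated test adjusted over all genes at a threshold of 0.05. Among all genes tested 2.18% fell and 1.55% rose (3.73% in all), so 1 fall in 34 is near the background. At an unadjusted p under 0.05 there were 9 of the 34, all with a change below 0 (10.9% of all genes; 18.2% in either direction). The change was below 0 in 28 of the 34 genes and above 0 in 6, with a median of -0.20. Over all genes 51.1% of changes lay below 0, 42.6% above, and the median was -0.0083, and over the 15160 genes within the same range of wild-type level (4.42 to 7.20) the median was -0.072, with 61.7% of changes below 0. Changes lay below 0 in 20 of the 34 genes after cyclic loess and 21 after repeated quantile normalisation. The count was 25 with arrays centred on the median and 19 with arrays centred and scaled. Among all 19938 genes it was 9584, 9661, 8174 and 8644 in the same order, against 10196 as deposited. The median of the 34 genes was -0.22 on date 1 and -0.054 on date 2. Over all genes it was 0 on both dates, and within the same range of wild-type level -0.087 and 0. The median of the 34 genes shrank with the scaling of the arrays, to -0.066 after cyclic loess and -0.12 with arrays centred on the median. It was -0.044 with arrays centred and scaled, and -0.053 without knockout 2. In the same order the median of all genes was 0.013, 0.064, 0.043 and 0. The all-gene median thus moved up from its deposited value too, and the median of the 34 genes stayed below it. In a bulk sample, fewer cells of a type and less RNA per cell cannot be told apart.

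Both knockout arrays lay below all 3 wild-type arrays in 11 of the 34 genes, Fosl2, Egr1, Egr3, Klf2, Ier3, Ier5, Dusp1, Dusp5, Dusp6, Gadd45g and Socs3. Among all genes this held for 18.6%. Knockout above all wild type was seen in 0 of the 34 genes and in 13% of all genes. Within the same range of wild-type level the shares were 23.0% below and 6.37% above. After cyclic loess the counts were 5 below and 4 above, against 22.8% and 26.2% of all genes. They were 6 and 5 after repeated quantile normalisation (21.8% and 25.2% of all genes), 8 and 5 with arrays centred on the median (15.1% and 42.3%), and 5 and 5 with arrays centred and scaled (18% and 29.7%). Egr1, Fosl2, Gadd45g, Ier5 and Klf2 were below under all 4 scalings, and Jund, Nr4a1 and Nr4a2 were above under all 4.

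**Figure D1:**
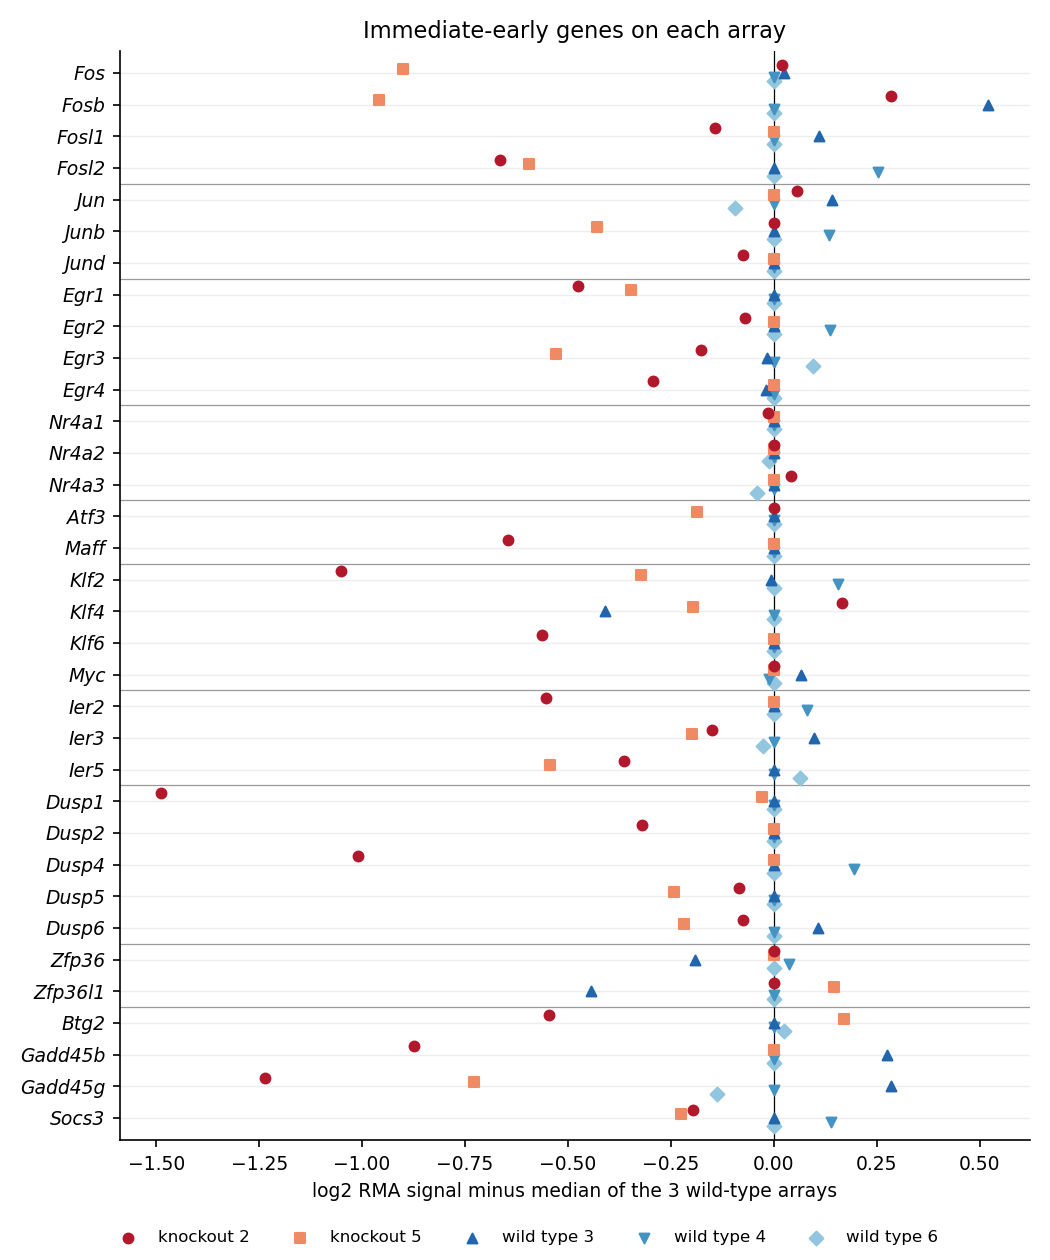
Each row is 1 immediate-early gene and each point 1 array, placed by its log2 RMA signal minus the median of the 3 wild-type arrays; grey lines separate families. Knockout 2 reaches -1.49 for Dusp1 and knockout 5 reaches -0.96 for Fosb, while most wild-type points sit at or near 0.

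**Figure D2:**
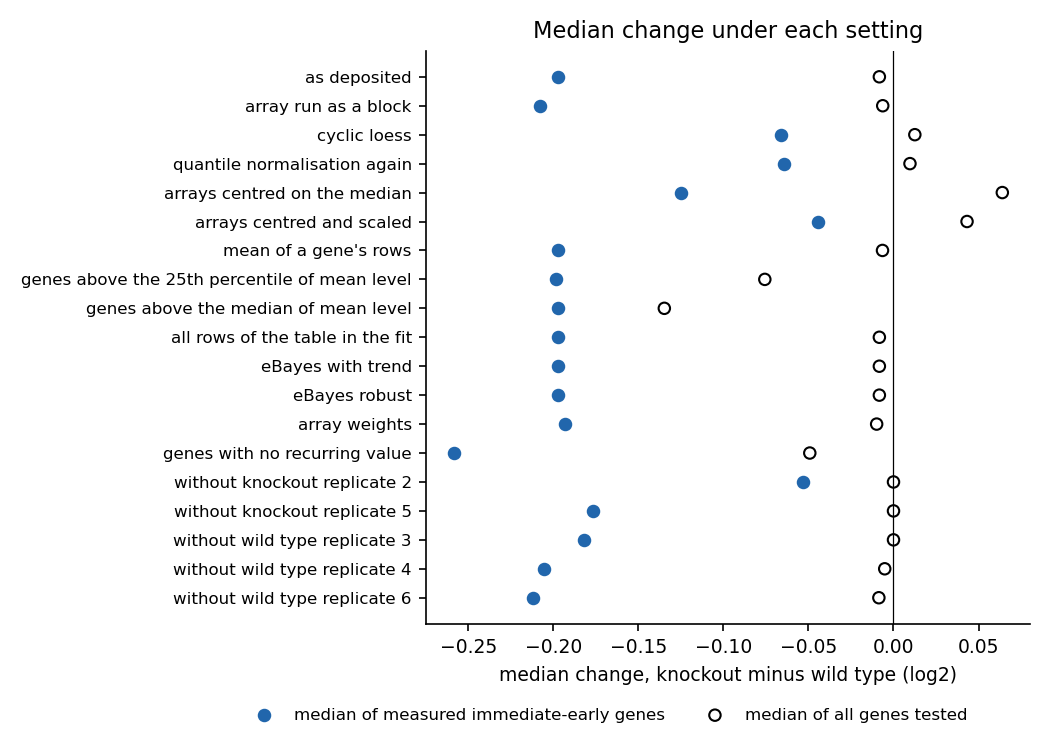
Filled points give the median change (log2) of the immediate-early genes and open points that of all genes tested, under the deposited values and each alternative. The immediate-early median runs from -0.26 to -0.044 and lies left of the all-gene median in each setting.

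Many of the low values belonged to 1 knockout mouse. Knockout 2 lay below all wild-type arrays in 23 of the 34 genes (41.4% of all genes) and knockout 5 in 15 (31.2% of all genes). Among genes within the same range of wild-type level the shares were 50.5% and 36.7%. Knockout 2 alone was below in 12 genes (22.9% of all genes), and in 11 of these 12, Fosl1, Jund, Egr2, Egr4, Nr4a1, Maff, Klf6, Ier2, Dusp2, Dusp4 and Gadd45b, knockout 5 had exactly the value of a wild-type array. Knockout 2 below with knockout 5 identical to a wild-type array was seen in 12.4% of all genes. Identity with a wild-type array was seen in 6 of the 34 genes for knockout 2 (26.6% of all genes) and 16 for knockout 5 (33.6%). Knockout 5 alone was below in 4 genes, Fos, Fosb, Junb and Atf3 (12.6% of all genes). At a distance of at least 0.3 below the wild-type median, a limit chosen after the values were seen, there were 13 genes in knockout 2 (25.9% of all genes), 9 in knockout 5 (14.4%) and 5 in both (6.96%). Those 5 were Egr1, Fosl2, Gadd45g, Ier5 and Klf2.

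**Figure D3:**
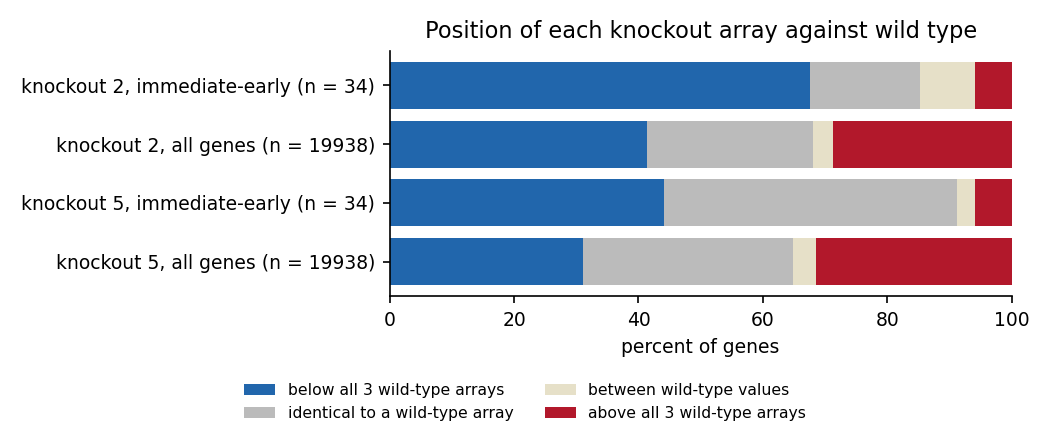
Bars give the percent of genes for which a knockout array lay below all wild-type arrays, was identical to one, lay between them or lay above all of them, for the 34 immediate-early genes and for all 19938 genes. Knockout 2 was above wild type in 2 of the 34 genes and knockout 5 in 2, against 28.7% and 31.4% of all genes. Among genes within the same range of wild-type level, not drawn here, the shares above were 18.9% and 25.3%.

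The FOS proteins pair with JUN proteins to form the AP-1 factor. Fosl2, a FOS protein with roles in cartilage and bone, was at 5.38 and 5.45 in knockouts 2 and 5, against 6.04, 6.29 and 6.04 in wild types 3, 4 and 6. Both knockout values were lower than any wild-type value, with a change of -0.71 (SE 0.102, limma's adjusted p = 0.0625) that did not pass. It was -0.66 on date 1 and -0.72 on date 2, -0.55 after cyclic loess, and the value shared by wild types 3 and 6 was a recurring one. Fos itself was at 6.003 and 5.08 in knockouts 2 and 5, with wild types 3, 4 and 6 at 6.01, 5.98 and 5.98. Only knockout 5 stood below, so its change of -0.45 (SE 0.311, limma's adjusted p = 0.399) turned to 0.011 without that mouse. Fosb followed the same order, with 6.47 in knockout 2, 5.23 in knockout 5 and 6.71, 6.19 and 6.19 in wild type. Its change was -0.51 (limma's adjusted p = 0.488), and 0.11 without knockout 5. Fosl1, induced later than Fos, had the same value of 5.43 in knockout 5 and wild types 4 and 6, with 5.29 in knockout 2 and 5.54 in wild type 3. All 4 FOS genes had changes below 0 as deposited, and Fosl1 turned to 0.0011 after cyclic loess.

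Promoter sequences of RefSeq (GRCm38.p6) were found for 28 of the 34 genes, and the 250 bases before the start were searched on both strands. None was found for Egr1, the gene that fell, or for Egr3, Fosl1, Myc, Ier2 and Dusp4. Stretches ending at the base before the start are printed for some members only. These are Fos and Fosb, low in knockout 5 alone, Fosl2, low in both knockout mice, Dusp1, lowest in knockout 2, and Dusp5. Gadd45g, Klf2 and Ier5, also low in both knockout mice, are not printed. Capitals mark the CREB half-site TGACG and the full element TGACGTCA that contains it, EGR sites (GCGNGGGCG) and CArG boxes, the sites of SRF.
Fos, chr12:85473790-85473889, plus strand: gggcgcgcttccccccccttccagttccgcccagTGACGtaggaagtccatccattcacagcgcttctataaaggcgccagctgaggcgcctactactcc
Fosb, chr7:19310046-19310145, minus strand: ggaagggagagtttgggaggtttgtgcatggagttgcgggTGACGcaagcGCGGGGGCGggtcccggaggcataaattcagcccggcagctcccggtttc
Fosl2, chr5:32136372-32136471, plus strand: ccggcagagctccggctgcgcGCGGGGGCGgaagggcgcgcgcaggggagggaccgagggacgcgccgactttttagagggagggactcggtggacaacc
Dusp1, chr17:26508473-26508622, minus strand: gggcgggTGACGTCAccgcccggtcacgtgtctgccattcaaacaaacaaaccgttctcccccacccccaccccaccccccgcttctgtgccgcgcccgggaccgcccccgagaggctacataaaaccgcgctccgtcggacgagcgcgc
Dusp5, chr19:53529045-53529144, plus strand: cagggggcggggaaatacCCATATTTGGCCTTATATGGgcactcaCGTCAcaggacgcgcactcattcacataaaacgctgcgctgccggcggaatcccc

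Half-sites TGACG lay in the window of 15 of the 28 genes, 53.6%, against 19.8% of the 27025 genes with a promoter sequence. EGR sites lay in 12 of 28, or 42.9% against 5.33%, among them Fosb, Fosl2, Klf2, Gadd45b, Nr4a1 and Socs3. CArG boxes were found for Dusp5, Egr2 and Zfp36 (10.7% against 1.62%), and the full TGACGTCA for Btg2, Dusp1 and Maff (10.7% against 1.77%). Dusp5 had a pair of CArG boxes side by side, from 82 to 73 and from 72 to 63 bases before its start. The AP-1 site TGANTCA was in 1 gene, Zfp36l1 (3.57% against 7.82%), and TATAAA in 5 (17.9% against 14.3%). Both knockout arrays were below wild type in 3 of the 12 genes with an EGR site (Fosl2, Klf2 and Socs3) and in 6 of the 16 without one. Among all genes this held for 18.6%. With and without the half-site the counts were 3 of 15 and 6 of 13. For CArG boxes, and likewise for TGACGTCA, they were 1 of 3 and 8 of 25. For TATAAA they were 1 of 5 and 8 of 23, and for the AP-1 site 0 of 1 and 9 of 27. Egr1 and Egr3 are not in these counts, as no promoter sequence was found for them. A match is a description of the letters in this window and shows no binding. Bases farther from the start were not searched, so a gene without a match, such as Fos for CArG boxes, may have sites there.

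None of the 3 JUN genes, the FOS partners, passed the test. Jun was at 5.83 and 5.78 in knockout and 5.68 to 5.92 in wild type, inside the wild-type range. Junb was at 6.12 in knockout 2, the value of wild types 3 and 6, with 6.26 in wild type 4 and 5.70 in knockout 5, exactly the recurring value that Dusp1 had in that mouse. Jund, the constitutively expressed JUN protein, was at 6.62 in knockout 2 and 6.70 on the other 4 arrays, and its change of -0.038 turned to 0.21 after cyclic loess.

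EGR proteins are zinc finger factors, and Egr1 is a mechanosensitive factor of tendon and fibrous tissue. Egr1 was at 5.32 and 5.45 in knockouts 2 and 5, and at 5.80 on all 3 wild-type arrays. It fell by 0.41 on the log2 scale (SE 0.046, limma's adjusted p = 0.0422), from 5.80 ± 0 (SD, n = 3) to 5.39 ± 0.092 (SD, n = 2), a level 1.33 times lower. The wild-type value was a recurring one, held by 60 to 68 rows of the table on each wild-type array, and its spread of 0 enters the fit. With the array date as a block the change was -0.40 (limma's adjusted p = 0.0872), and after cyclic loess -0.28 (limma's adjusted p = 0.0904). Without wild type 3, 4 or 6 limma's adjusted p was 0.202, 0.234 and 0.243. The change was -0.48 on date 1 and -0.35 on date 2.

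Egr3, a factor needed for muscle spindles, was at 6.90 and 6.55 in knockouts 2 and 5, against 7.06, 7.07 and 7.17 in wild type. The groups did not overlap, but the change of -0.38 (SE 0.127, limma's adjusted p = 0.26) did not pass and was -0.10 after cyclic loess. Egr2, known for Schwann cell myelination, was at 5.67 in knockout 2, 5.74 in knockout 5 and wild types 3 and 6, and 5.87 in wild type 4. Egr4 was at 5.93 in knockout 2, and 6.20 to 6.22 in knockout 5 and wild type. The changes of Egr2 and Egr4, -0.081 and -0.14, turned above 0 after cyclic loess, at 0.068 and 0.052.

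The NR4A nuclear receptors, orphan receptors induced by many signals, had narrow ranges as deposited. Nr4a1 ran from 5.14 to 5.15, Nr4a2 from 5.998 to 6.01 and Nr4a3 from 4.40 to 4.48 over the 5 arrays. For Nr4a3 the value of 4.44 in knockout 5 and wild types 3 and 4 was held by 182 to 297 rows on each of those arrays. Changes as deposited were -0.0072, 0.0041 and 0.035, none past the test. After cyclic loess the changes were 0.060 for Nr4a1, 0.18 for Nr4a2 and -0.032 for Nr4a3, and with arrays centred and scaled Nr4a2 was at 0.21.

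Atf3, a stress-induced repressor of the ATF family, had 6.0004 on 4 arrays and 5.81 in knockout 5, and its change of -0.094 turned to 0.077 after cyclic loess. Maff, a small MAF protein without an activation domain, had 5.09 on 4 arrays and 4.44 in knockout 2. Both single low values thus came from different mice.

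Among the Krüppel-like factors, Klf2, known for its induction by blood flow in endothelium, was at 6.10 and 6.82 in knockouts 2 and 5. Wild types 3, 4 and 6 were at 7.14, 7.30 and 7.15, all above both knockout mice, and none of the 5 values recurred. It changed by -0.74 (SE 0.254, limma's adjusted p = 0.272), -1.04 on date 1 and -0.40 on date 2, and -0.46 after cyclic loess. Endothelial markers had changes below 0 in 7 of 9, with a summed linear signal of 353 and 383 in the knockout mice and 411 to 434 in wild type. Their part in the level of Klf2 was not tested. Klf6 was at 4.58 in knockout 2 and 5.15 on the other 4 arrays. Klf4, a pluripotency and differentiation factor, had overlapping groups, at 6.15 and 5.79 in knockout and 5.58 to 5.99 in wild type. Myc, the growth-promoting factor, ran from 4.92 to 4.99 over all 5 arrays.

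Of the IER genes, Ier5, a regulator of the heat shock response, was at 5.26 and 5.08 in knockouts 2 and 5, against 5.62, 5.62 and 5.69 in wild type. Both knockout values were lower than every wild-type value and none of the 5 recurred. The change of -0.48 (SE 0.068, limma's adjusted p = 0.0618) did not pass, and was -0.36 on date 1, -0.58 on date 2 and -0.36 after cyclic loess. Ier3, a survival factor, was at 5.19 and 5.14 in knockout and 5.31 to 5.43 in wild type, a change of -0.20 (SE 0.050, limma's adjusted p = 0.158). Ier2, a nuclear protein, was at 4.56 in knockout 2, with 5.11 to 5.19 on the other arrays. Knockout 5 shared its Ier2 value with 241 rows of the table.

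**Figure D4:**
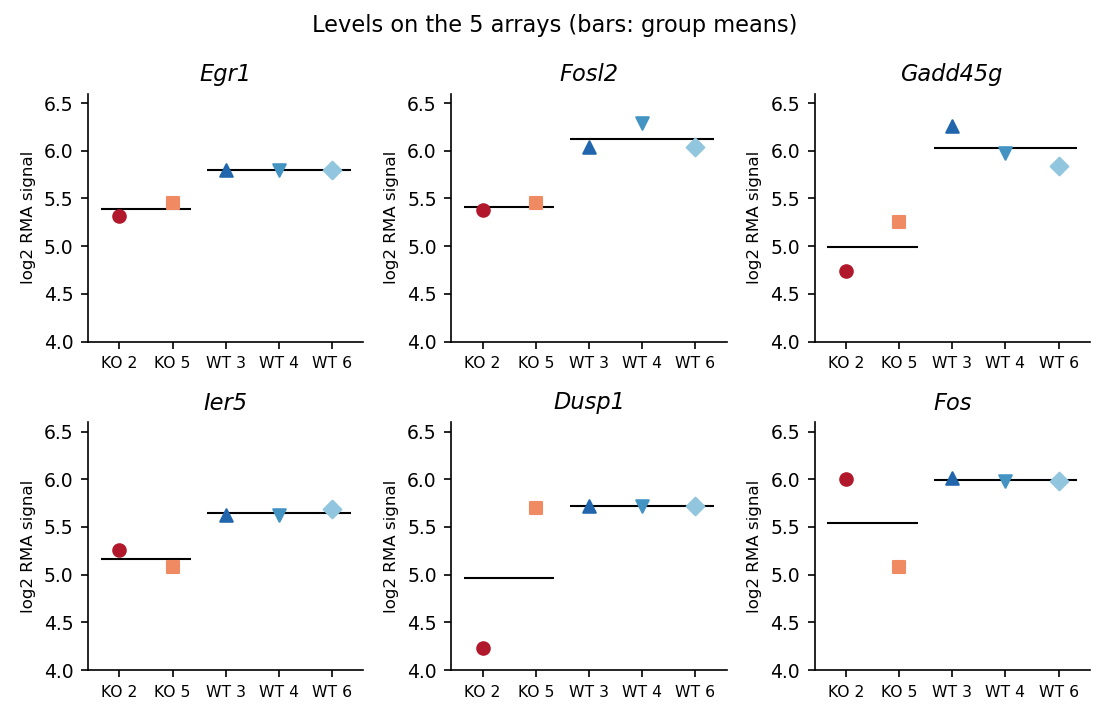
Log2 RMA signals of 6 immediate-early genes on the 5 arrays, with a bar at each group mean, all panels on the same axis from 4 to 6.6. Egr1, Fosl2, Gadd45g and Ier5 are below wild type in both knockout mice, Dusp1 is far below in knockout 2 (4.24) and Fos in knockout 5 (5.08).

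DUSP phosphatases switch MAP kinases off. Dusp1, which acts on p38, JNK and ERK in the nucleus, was at 4.24 and 5.70 in knockouts 2 and 5, against 5.72 on all 3 wild-type arrays. The change of -0.76 (SE 0.493, limma's adjusted p = 0.399) came mainly from 1 mouse, with -1.49 on date 1 and -0.028 on date 2. Dusp4, a nuclear phosphatase of the same kind, was at 4.53 in knockout 2, with 5.54 in knockout 5 and wild types 3 and 6, and 5.73 in wild type 4. Dusp2 had the same order, with 5.13 in knockout 2 and 5.45 on the other 4 arrays.

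Dusp6, the cytoplasmic phosphatase of ERK, was at 5.35 and 5.21 in knockout, and at 5.53, 5.42 and 5.42 in wild type. Dusp5, its nuclear counterpart, was at 6.53 and 6.37, against 6.61 on all 3 wild-type arrays. Here knockout 5 was the lower mouse, unlike for Dusp1, Dusp2 and Dusp4. The changes were -0.18 for Dusp6 (limma's adjusted p = 0.291) and -0.16 for Dusp5 (limma's adjusted p = 0.267), and after cyclic loess Dusp5 turned to 0.072 and Dusp6 was at -0.078. All 5 DUSP genes had changes below 0 as deposited and none passed the test.

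The mRNA decay factors Zfp36 and Zfp36l1, which bind AU-rich elements, had changes above 0, at 0.052 and 0.22, as had Jun, Nr4a2, Nr4a3 and Klf4. Zfp36 was at 5.94 in both knockout mice and wild type 6, with 5.74 in wild type 3 and 5.97 in wild type 4. Its change was 0.19 on date 1 and -0.018 on date 2. Zfp36l1 was at 4.77 and 4.92 in knockout and 4.33, 4.77 and 4.77 in wild type, so wild type 3 was the low array. Every Zfp36l1 value except that of wild type 3 was a recurring one. Neither passed the test.

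Gadd45g, a stress sensor that activates p38 kinase signalling, had the largest change of the 34 genes. It was at 4.74 and 5.25 in knockouts 2 and 5, against 6.26, 5.98 and 5.84 in wild types 3, 4 and 6. Both knockout mice were lower than all wild-type mice, by 1.03 between group means (SE 0.226, limma's adjusted p = 0.127), or 2.04 times, which did not pass the test. The change was -1.52 on date 1, -0.66 on date 2 and -0.90 after cyclic loess. The knockout 2 value, however, was the one held by 592 rows, the most for any value on that array, and the wild type 6 value was held by 47.

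Gadd45b, known to act in hypertrophic chondrocytes, was at 4.62 in knockout 2, against 5.50 in knockout 5 and wild types 4 and 6 and 5.77 in wild type 3. Btg2, an antiproliferative factor, split the knockout mice, at 5.28 and 5.99 in knockouts 2 and 5, with wild type from 5.82 to 5.85 between them. Socs3, the inhibitor of gp130 cytokine signalling, was at 6.65 and 6.62 in knockout, and at 6.85, 6.99 and 6.85 in wild type. Its change of -0.26 (SE 0.058, limma's adjusted p = 0.131) turned to 0.0045 after cyclic loess. On the second Socs3 row, knockout 2 was at 6.26, the value of wild types 4 and 6, and knockout 5 at 5.15, so the rows agree on knockout 5 and differ on knockout 2.

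Around these genes, 32 of 40 listed kinases and factors that signal to immediate-early promoters were measured, of which 1 rose and 31 did not pass, with a median of 0.0027. Crem, which encodes activators and inducible repressors of cAMP-responsive genes, rose. It was at 4.50 and 4.44 in knockout, against 4.10, 4.03 and 4.10 in wild type, a change of 0.39 (SE 0.039, limma's adjusted p = 0.0352). The knockout 5 value was a recurring one, held by 297 rows and shared with Nr4a3. Sos1, the exchange factor that activates RAS, had a change of 0.34 (limma's adjusted p = 0.0842). Srf was at 5.01 in knockout 2 and 5.58 on the other 4 arrays, and Creb1 at 5.21 and 4.98 in knockout and 5.22 in wild type.

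Of 13 AP-1 partners and EGR corepressors, 12 were measured, 1 rose and 11 did not pass, with a median of -0.20. Batf, an AP-1 protein of lymphocytes, was at 6.55 and 6.51 in knockout and 6.31 to 6.33 in wild type, a rise of 0.21 (SE 0.021, limma's adjusted p = 0.0358), with no recurring value. Lymphocyte markers had changes above 0 in 7 of 9, below 0 in 1 and 0 in 1, with a summed linear signal of 384 and 412 in the knockout mice and 325 to 349 in wild type, and their part in Batf was not tested. The related Batf2 had -0.55 (limma's adjusted p = 0.129).

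All 14 further feedback inhibitors of MAP kinases were measured and none passed the test. Changes lay below 0 in 12 (51.1% of all genes), with a median of -0.21, or -0.40 on date 1 and -0.0046 on date 2. Over all genes the median was 0 on both dates. Spred3, an inhibitor of RAS signalling, was at 5.17 and 4.94 in knockout and 5.79 to 5.97 in wild type (change -0.80, limma's adjusted p = 0.0554). Spry1, a feedback inhibitor of FGF signalling, was at 5.63 and 5.33 against 6.20 to 6.54 (change -0.83, limma's adjusted p = 0.106).

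Among secreted and enzyme targets, 25 of 28 were measured, 1 fell and 24 did not pass, with a median of -0.11. Ereg, an EGF-family ligand, was at 4.62 and 4.56 in knockout and 4.85 to 4.89 in wild type, a fall (change -0.27, SE 0.030, limma's adjusted p = 0.0417), and the value shared by wild types 4 and 6 was a recurring one, held by 109 and 125 rows. Ccn1, a matricellular target of SRF and YAP, was at 5.42 and 5.05 in knockout and 6.12, 6.38 and 6.12 in wild type, a change of -0.97 (SE 0.161, limma's adjusted p = 0.0782). Ccn2 was at 6.16 and 6.45 against 6.09 to 6.16 in wild type, so the related gene did not share the low values of Ccn1. Crem, Batf and Ereg kept their direction under cyclic loess, with changes of 0.29, 0.43 and -0.28, and none passed there (limma's adjusted p = 0.0962, 0.107 and 0.107) or with the array date as a block (limma's adjusted p = 0.0758, 0.0829 and 0.0603). Without wild type 3, 4 or 6 none of these 3 genes passed either, with limma's adjusted p from 0.163 to 0.233.

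**Figure D5:**
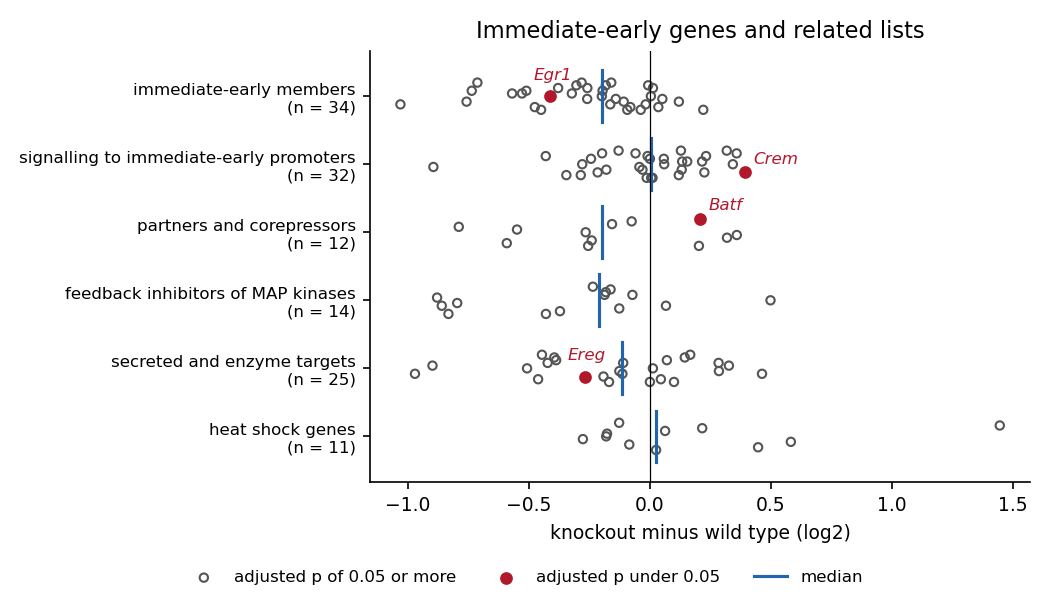
Each point is the change of 1 gene (knockout minus wild type, log2) in the 34 immediate-early genes and the 5 related lists, with a blue bar at the list median. Filled points passed limma's test after adjustment over all genes, which are Egr1, Crem, Batf and Ereg.

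Heat shock genes, which can rise with immediate-early genes when tissue is handled, were measured for 11 of 12 and none passed. Hspa8, the constitutive chaperone, was at 5.68 and 6.44 in knockout and 4.21 to 4.93 in wild type (change 1.45, limma's adjusted p = 0.153). Hspd1, a mitochondrial chaperonin, had 0.45 (limma's adjusted p = 0.0544), while the inducible Hspa1a had -0.18. The list median was 0.026, with changes below 0 in 5 and above 0 in 6.

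Markers of the cells a condyle sample can hold differed between the groups as well. Chondrocyte markers had changes below 0 in 12 of 13, with 3 falls, and a summed linear signal of 681 (knockout 2) and 789.6 (knockout 5), while wild type had 900.4 to 917. Skeletal muscle markers had changes below 0 in 10 of 12, with sums of 592 and 659 against 731 to 784. Neutrophil markers summed to 391 and 394 against 349 to 361, macrophage markers to 286 and 301 against 269 to 283, and nerve and Schwann markers to 256 and 271 against 241 to 249. These had changes above 0 in 6 of 9, 4 of 9 and 4 of 6, and below 0 in 3, 3 and 2. The other 2 macrophage markers had a change of 0. In the nerve list Cdh19 rose by 0.50 and Nefl fell by 0.62 (limma's adjusted p = 0.0211 and 0.0125). Cdh19 was at 3.27 and 3.19 in knockout and at 2.73 on all 3 wild-type arrays. In the adipocyte list Cidec fell, while changes lay above 0 in 5 of 8 and below 0 in 3. In the mast cell list Ms4a2 rose, with changes above 0 in 3 of 7, below 0 in 2 and 0 in 2. Ms4a2 was at 4.40 and 4.21 in knockout and at 3.31 on all 3 wild-type arrays. For Cdh19 and Ms4a2 a wild-type spread of 0 thus enters the fit, at low wild-type levels (percentiles 2.1 and 5.0 of all genes). The lowest value of any row on any array was 0.41, so no marker could be at 0, and whether each was detected was not assessed. The part of these differences in the immediate-early genes was not tested.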

How the data were processed

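The authors deposited log2 values of whole-transcript arrays, made with Affymetrix Expression Console and RMA per the submitters' processing notes; neither versions nor a genome build is given in the sources used here. RMA ends in a median polish over the probes of a transcript. Of 35556 rows, 21789 had 1 gene symbol in the platform annotation, and symbols were updated by gene identifier with the GRCm38.p6 gene table. A gene with several rows was represented by its brightest. All 19938 genes were fitted with limma 3.58.1 in R 4.3.3 (lmFit, eBayes), knockout minus wild type, two-sided, with Benjamini-Hochberg adjustment over all genes and a threshold of 0.05. The groups share no replicate number, and the labels name a mouse for each array, so mouse and array cannot be told apart. In 9 of the 34 genes and 39.1% of all genes the wild-type values were identical. These spreads of 0 enter the fit, and p-values there do not measure the spread between mice. Precision is limited by the number of arrays. Members, lists, naming rule (members past the test, members without overlap, at least 1 of each family, and from each related list the called genes and the 2 of lowest p; Ccn2, Srf, Creb1 and Hspa1a were added after their values were seen) and tests were chosen with earlier results of these data known. The fit was tested on simulated data, but no outcome of that is given here, so it does not vouch for the p-values above. Array date as a block, 4 scalings, row choice, dim-gene filters, variance models, array weights and each array left out were alternatives. The remaining alternatives, genes with no recurring value and the overlap count under each scaling, were added after seeing the data. Markers of chondrocyte, muscle, endothelial, lymphocyte, neutrophil, macrophage and nerve cells are reported; osteoblast (sums 323 and 389.5 in knockout, 363 to 369 in wild type), osteoclast (232 and 304; 296 to 306), erythroid (145 and 117; 138), adipocyte (277 and 327; 318 to 325), fibroblast (434 and 578; 560.1 to 642) and mast cell (181 and 205; 186 to 190.1) lists had knockout arrays on both sides of a wild-type array.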

Additional observations from a re-analysis of the deposited data

How the results depend on the processing

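The count of 744 called genes, and the call of Egr1 among the 34, changed with the setting. No gene was called with the array date as a block, cyclic loess, repeated quantile normalisation or array weights (0 genes; an unadjusted p under 0.05 held for 3829, 3919, 3761 and 1917 genes), and 177 were called with arrays centred and scaled, 446 above the median level, 445 with all rows in the fit and 361 with no recurring value. Egr1 was not called (0 of the 34) under those except the level filter, nor with arrays centred on the median or robust eBayes, and it was left out of the genes with no recurring value. Unadjusted p under 0.05 held for 4 to 8 of the members in these fits. Leaving out 1 array gave 0 to 9999 called genes, 0 to 16 called members (0 without any wild-type array, with 5 or 6 at an unadjusted p under 0.05; 8 without knockout 2 and 16 without knockout 5, with the lone array assumed to vary as wild type does) and a member median from -0.21 to -0.053. The member median was -0.066 after cyclic loess, -0.065 after quantile normalisation, -0.12 with arrays centred, -0.044 centred and scaled, and -0.26 over the 15 members with no recurring value. Members with both knockout arrays below wild type numbered 5 after cyclic loess, 6 after quantile normalisation and 5 centred and scaled, with 8 when centred.

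Signs turned as follows. After cyclic loess: Fosl1 0.0011, Jund 0.21, Egr2 0.068, Egr4 0.052, Nr4a1 0.060, Nr4a3 -0.032, Atf3 0.077, Myc 0.0099, Dusp5 0.072, Socs3 0.0045. After quantile normalisation: Fosl1 0.0097, Jund 0.17, Egr2 0.062, Egr4 0.022, Nr4a1 0.067, Nr4a3 -0.022, Atf3 0.053, Myc 0.034, Dusp5 0.0093. With arrays centred: Jund 0.034, Nr4a1 0.065, Myc 0.055. With arrays centred and scaled: Fosl1 0.0053, Jund 0.27, Egr2 0.086, Egr4 0.079, Nr4a1 0.072, Atf3 0.11, Myc 0.030, Dusp5 0.13, Socs3 0.063. With array weights: Myc 0.0015, Zfp36 -0.0045. With the date as a block: Jun -0.0093. With 1 array left out, Jun ranged from -0.042 to 0.075, Egr4 from -0.29 to 0.0062, Klf4 from -0.061 to 0.30, Btg2 from -0.55 to 0.16, Fos from -0.91 to 0.011, Fosb from -1.13 to 0.11, Myc from -0.032 to 0.0063 and Zfp36 from -0.018 to 0.096. The cause was not tested. No replicate number occurs in both groups, hence no pairs were formed, and the comparison within array dates is the fit with the date as a block.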
